A study of Mus musculus with 2 samples.

Results

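Transcription regulators of spermatocytes and spermatids were described in testis RNA of mice with and without exposure to bisphenol A (BPA), a building block of plastics that can act on estrogen receptors. The members were 10 mouse genes chosen by symbol, Crem, Fhl5, Tbpl1, Taf7l, Gtf2a1l, Rfx2, Sox30, Ovol1, Tcfl5 and Mybl1, and each was found through its Entrez gene ID among 33384 rows with a value. The control group was testis of BALB/c mice at postnatal day 45, and the BPA group was testis of the same strain and age with BPA exposure; no dose, route or duration of exposure is stated in the labels. The series title places the study in adolescent mice and names the spliceosome and meiosis of the testis. In each group 3 samples were mixed before sequencing, so each group has 1 library, the samples of a group cannot be compared with each other, and no test between the conditions can be made.

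Male germ cells change their transcription machinery as they pass through meiosis and become haploid. In pachytene spermatocytes MYBL1 (A-MYB) and the basic helix-loop-helix factor TCFL5 switch on meiotic and piRNA pathway genes, and in round spermatids the bZIP activator CREM, with its LIM-domain coactivator FHL5 (ACT), switches on genes of sperm chromatin and the tail. TBPL1, TAF7L and GTF2A1L are germ cell relatives of TBP, of the TFIID subunit TAF7 and of the TFIIA subunit GTF2A1, while RFX2 and SOX30 are needed for round spermatids to develop, and OVOL1 for pachytene progression.

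Promoter windows of RefSeq, on build GRCm38 and running from 250 bases before to 50 bases after a start site, were used for 7 members with 8 windows; Crem, Ovol1 and Mybl1 were not used here. Matches to binding motifs of the members or their families, and to the TATA letters of TBP, were sought on both strands as exact letters. The CREM element TGACGTCA was in 0 of the 8 windows, against 1.79% of all 32851 windows, and its first part TGACG was in 1, Rfx2, against 20.8%. The MYB letters CNGTT were in all 8 windows, but also in 80.3% of all windows. The X-box core GTTGCC, read by RFX factors, was in 2 windows, Rfx2 and Gtf2a1l, against 12.5% of all windows. The E-box CACGTG, a site type of helix-loop-helix factors such as TCFL5, was in 1, Taf7l, against 7.15%, and the OVO letters CCGTTA in 1, Tcfl5, against 2.76%. The SOX letters ACAATGG were in 0 of 8, against 3.66%, and the TATA letters TATAAA in 1, Taf7l, against 13.6%. A match describes letters and not a bound site. The 4 windows that hold a rarer motif are shown, 5′ to 3′ on the strand of the gene, because they are the places where such a motif lies in the promoter window of a member. Capitals mark TGACG and GTTGCC in Rfx2 (chr17:56830959-56831258, minus strand), GTTGCC in Gtf2a1l (chr17:88668410-88668709, plus strand), CACGTG and a pair of overlapping TATAAA matches, one per strand, in Taf7l (chrX:134476441-134476740, minus strand) and CCGTTA, read on the opposite strand, in Tcfl5 (chr2:180642642-180642941, minus strand).
Rfx2: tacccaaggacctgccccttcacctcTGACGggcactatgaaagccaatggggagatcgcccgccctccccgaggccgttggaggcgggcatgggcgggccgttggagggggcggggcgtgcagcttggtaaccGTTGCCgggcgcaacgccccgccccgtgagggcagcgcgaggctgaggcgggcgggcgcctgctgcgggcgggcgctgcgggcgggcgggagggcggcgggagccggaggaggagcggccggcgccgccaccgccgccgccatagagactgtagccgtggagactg
Gtf2a1l: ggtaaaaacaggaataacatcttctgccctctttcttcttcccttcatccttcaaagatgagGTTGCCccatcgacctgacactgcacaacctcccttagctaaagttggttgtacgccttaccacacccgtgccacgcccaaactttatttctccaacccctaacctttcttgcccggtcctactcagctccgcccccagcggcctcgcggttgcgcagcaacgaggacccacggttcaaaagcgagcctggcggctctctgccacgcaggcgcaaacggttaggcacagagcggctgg
Taf7l: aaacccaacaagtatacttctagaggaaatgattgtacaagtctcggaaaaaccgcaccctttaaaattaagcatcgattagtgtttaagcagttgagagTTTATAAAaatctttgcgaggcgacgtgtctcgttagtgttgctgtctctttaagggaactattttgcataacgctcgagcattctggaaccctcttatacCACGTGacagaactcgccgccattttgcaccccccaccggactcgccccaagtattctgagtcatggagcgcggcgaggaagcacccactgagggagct
Tcfl5: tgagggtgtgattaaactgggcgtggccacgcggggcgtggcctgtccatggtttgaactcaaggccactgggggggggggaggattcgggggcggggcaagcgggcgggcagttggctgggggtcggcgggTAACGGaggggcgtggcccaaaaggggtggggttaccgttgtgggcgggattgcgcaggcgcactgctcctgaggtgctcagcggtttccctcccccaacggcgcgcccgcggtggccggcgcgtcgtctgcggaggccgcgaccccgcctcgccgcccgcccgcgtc
Counted from the start site, the first base of the match lies at -224 (TGACG) and -116 (GTTGCC) in Rfx2, at -188 in Gtf2a1l, at -49 (CACGTG) in Taf7l and at -118 in Tcfl5.

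All 10 regulators were present in both libraries, and their levels differed little between them. Values are CPM, counts per 1000000 reads of a library, and 1 read was worth 0.0220 CPM after BPA exposure and 0.0239 CPM without it. The members had between 389 and 20700 reads per library and together made up 0.207% of the reads after BPA exposure and 0.212% without it. By the size rule, a ratio of at least 2-fold among the 19389 genes that reached 1 CPM in the higher library, 0 of 10 members were apart, where 3.28% of all genes were. In bulk tissue, fewer cells of a type and less RNA per cell cannot be told apart. All 10 also lay within 1.5-fold, whereas 9.64% of all genes lay at 1.5-fold or beyond, and 6 of 10 lay within 5% of equal levels, against 29.5% of all genes. Abundant genes as a whole differed little: of the 2401 genes whose mean reached 100 CPM, 2 were 2-fold apart and 61.3% lay within 5%, as did 5 of the 7 members at that level. The median log2 ratio of BPA over control was -0.03 over the members and 0.0041 over all genes at that floor. Ratios below carry a 95% interval by the exact Clopper-Pearson method on the reads, which covers counting error only, since PCR copies are not independent molecules and the spread between animals was not measured. That interval left out equal levels in 4 of 10 members, 1 above and 3 below, against 43.1% of all genes, 21.8% above and 21.3% below. All 4 are among the 7 members whose mean reached 100 CPM. Of the 2401 genes at that level, 620 had intervals above equal levels and 856 below, and their median log2 ratio was -0.011.

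**Figure D1:**
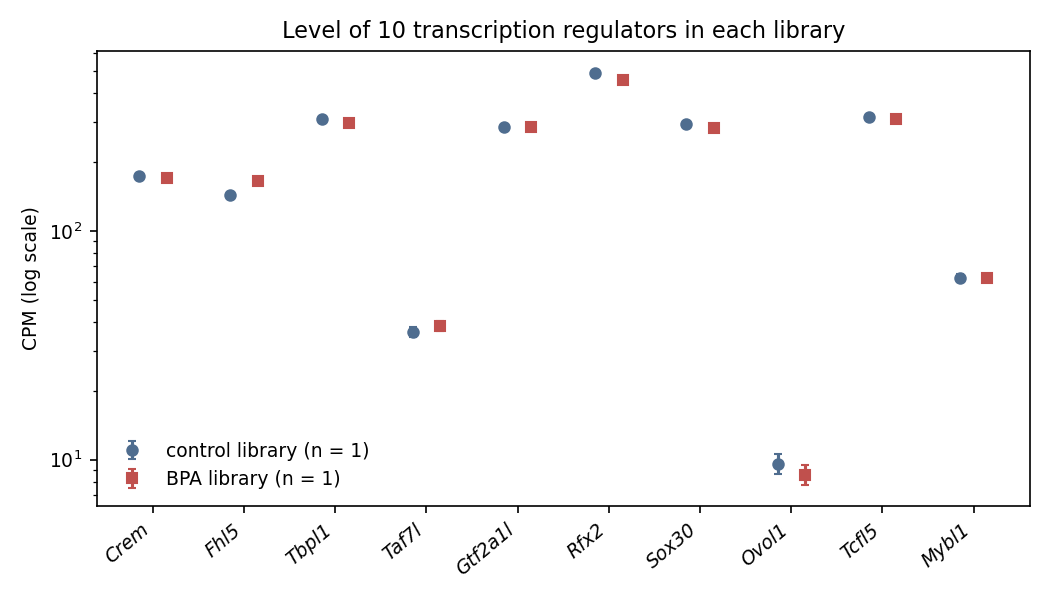
CPM of each regulator (log axis) in the control library (circles) and the BPA library (squares), 1 library per group, with exact 95% Poisson intervals that cover counting error only and are often smaller than the symbols. The pairs of symbols lie side by side for all 10 genes, from Rfx2 at 490 and 456 CPM down to Ovol1 at 9.57 and 8.57 CPM, and Fhl5 shows the widest gap among the abundant ones.

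Among the regulators of pachytene spermatocytes, Mybl1 and Tcfl5 were at almost the same level in both libraries. Mybl1 (gene ID 17864, chr1:9667407-9700439) stood at 62.1 CPM after BPA exposure and 62.1 CPM without it, a ratio of 1.001 (0.949 to 1.056). Tcfl5 (277353, chr2:180621956-180642691) stood at 309 CPM after BPA exposure and 315 CPM without it, a ratio of 0.984 (0.961 to 1.008). For both genes the interval holds equal levels and reaches no farther than 5.63% from them. Ovol1 (18426, chr19:5549137-5560575), a zinc finger repressor and the least abundant member, stood at 8.57 CPM after BPA exposure and 9.57 CPM without it. Its ratio of 0.896 rested on 389 and 400 reads, and the interval of 0.777 to 1.03 was the widest of the members. Its target gene Id2, an inhibitor of helix-loop-helix factors, stood at 5.07 CPM after BPA exposure, with 230 reads against 209 in the control library and a ratio of 1.01 (0.837 to 1.23). Exons of Gm31166 on the opposite strand overlap those of Ovol1, and overlaps with other annotated genes cover 22.0% of its exon bases. Gm31166 stood at 193 CPM after BPA exposure and 203 CPM without it, and the library protocol in the labels names no strand-marking step. The part of the Ovol1 value that comes from Gm31166 was not tested.

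CREM and its coactivator showed ratios of different size. Crem (12916, chr18:3266354-3337773) stood at 170 CPM after BPA exposure and 174 CPM without it, a ratio of 0.978 (0.947 to 1.01). The gene yields activator and repressor forms (CREM tau and ICER among them), GENCODE M21 lists 39 transcripts for it, and the deposited value per gene does not separate them. Fhl5 (57756, chr4:25199907-25242852) stood at 166 CPM after BPA exposure and 144 CPM without it. Its ratio of 1.15 (1.11 to 1.19) was the largest of the members in size, with a log2 ratio of 0.20, and the only one whose interval lay wholly above equal levels. Among those 2401 genes whose mean reached 100 CPM, 4.62% had a log2 ratio farther from 0 than that of Fhl5, and among all 19389 genes 37.7% did. Fhl5 shares no exon bases with another annotated gene, and 0% of its 50-base words occur in transcripts of other loci. Kif17, the kinesin that carries FHL5 out of the spermatid nucleus, stood at 516 CPM after BPA exposure and 530 CPM without it.

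The germ cell forms of the general transcription factors had ratios from 0.963 to 1.06. Tbpl1 (237336, chr10:22703877-22732666), the TBP relative needed by round spermatids, stood at 297 CPM after BPA exposure and 308 CPM without it, a ratio of 0.963 (0.939 to 0.986). Gtf2a1l (71828, chr17:88665493-88715157), the germ cell TFIIA subunit, stood at 285 CPM in both libraries, a ratio of 0.998 (0.973 to 1.023). Taf7l (74469, chrX:134460116-134476505), an X-linked TFIID subunit, stood at 38.3 CPM after BPA exposure and 36.1 CPM without it, a ratio of 1.06 (0.991 to 1.14). Of these 3 genes, Tbpl1 alone had an interval without equal levels, between 6.05% and 1.39% below the control library. Opposite-strand exons of another annotated gene cover 12.4% of the exon bases of Tbpl1 (Slc2a12), 8.01% of those of Crem (Gm6225) and 7.39% of those of Tcfl5 (Col9a3). Slc2a12 stood at 3.88 CPM after BPA exposure and 3.11 CPM without it, Gm6225 at 9.17 and 10.2 CPM, and Col9a3 at 7.74 and 7.08 CPM. With Ovol1 these make 4 members with such an overlap, and the remaining 6 have none.

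Rfx2 and Sox30 were slightly lower in the BPA library by their reads, and the ratio of Tbpl1 (0.963) lay between theirs. Rfx2 (19725, chr17:56775897-56831008), the winged-helix factor of flagellar genes, stood at 456 CPM after BPA exposure and 490 CPM without it, a ratio of 0.931 (0.913 to 0.949). Sox30 (214105, chr11:45979069-46017992), an HMG-box factor, stood at 282 CPM after BPA exposure and 292 CPM without it, a ratio of 0.969 (0.945 to 0.993). At such depth counting intervals are narrow, and 61.5% of the genes whose mean reached 100 CPM had an interval without equal levels. The log2 ratio of Rfx2 was -0.10, and 22.7% of those genes lay farther from 0. The authors' deposited table gives all 10 members a q-value of 0.99996, and the smallest p-value among them in the authors' deposited table was 0.21098, for Fhl5.

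**Figure D2:**
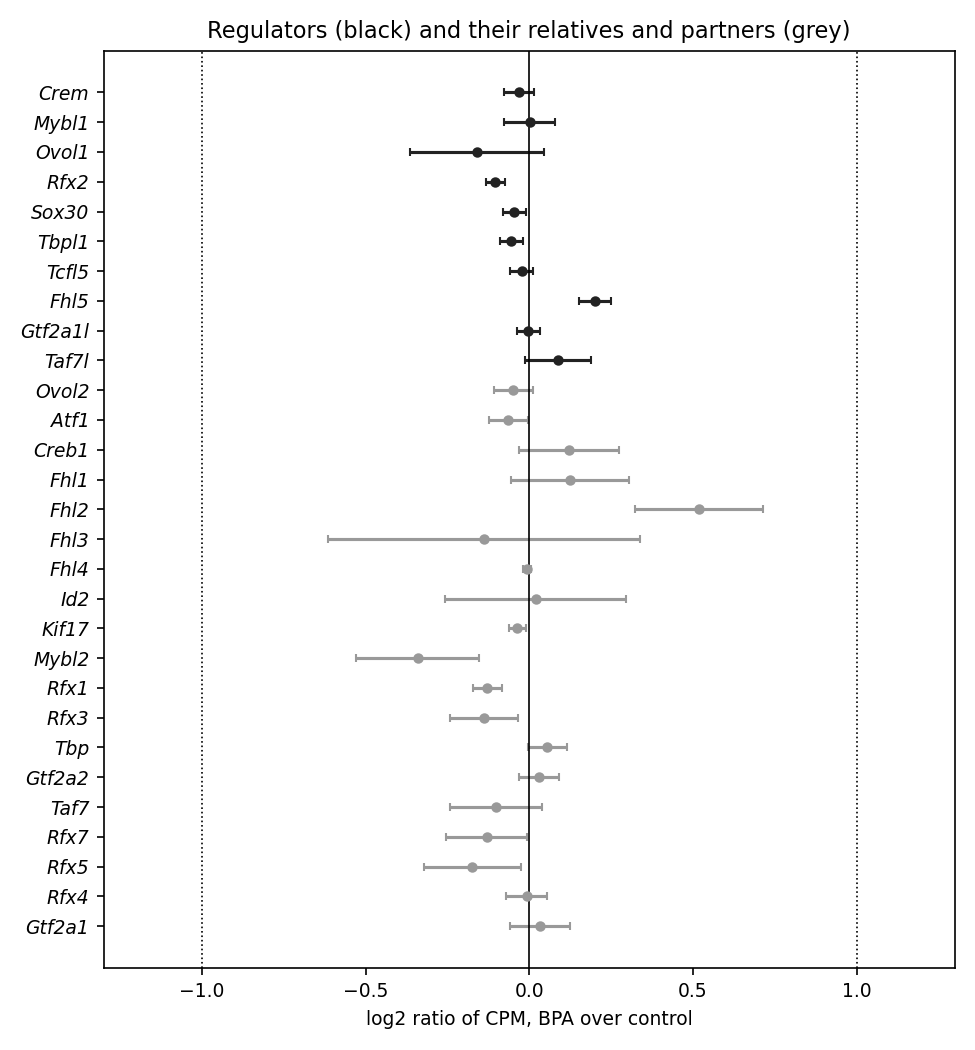
Log2 ratio of CPM, BPA over control, for the 10 regulators (black) and 19 of their relatives and partners (grey), with exact 95% binomial intervals of the reads (counting error only); dotted lines mark 2-fold. All points lie between the dotted lines, those of Fhl2 (ratio 1.43) and Mybl2 (ratio 0.789) are the farthest from 0, and the black points run from Ovol1 (ratio 0.896) to Fhl5 (ratio 1.15).

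Levels of different genes were compared per kb of merged exons. In the control library the order was Gtf2a1l (151 CPM per kb), Fhl5 (123), Tcfl5 (99.4), Sox30 (97.3), Tbpl1 (94.3), Rfx2 (67.0), Crem (29.5), Taf7l (16.1), Mybl1 (11.5) and Ovol1 (2.74), all in CPM per kb. On merged exons all 10 genes held the same place in the BPA library, from Gtf2a1l at 151 CPM per kb to Ovol1 at 2.46 CPM per kb. Fhl5 stood at 141 CPM per kb there. Of the 9 neighbouring pairs in that order, the counting intervals of Tcfl5 and Sox30, and of Sox30 and Tbpl1, overlapped in the control library, and those of 0 pairs overlapped in the BPA library. Per kb of the longest transcript, Rfx2 (118 CPM per kb in the control library) stood at place 4 and Crem at 59.4 CPM per kb. On that length Fhl5 and Tcfl5 exchanged places between the libraries, with Fhl5 at place 3 in the control library and 2 in the BPA library, so the order depends on the length used.

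**Figure D3:**
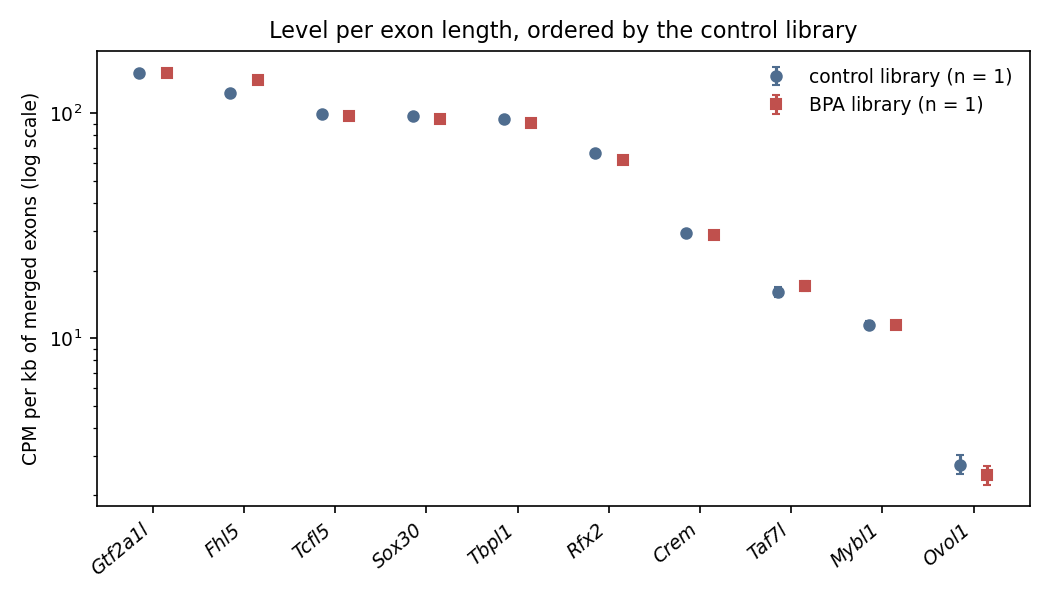
CPM per kb of merged GENCODE M21 exons (log axis) for each regulator in the control library (circles) and the BPA library (squares), ordered by the control library, with exact 95% Poisson intervals that cover counting error only. With this length the same order holds in both libraries, from Gtf2a1l at 151 CPM per kb to Ovol1 below 3 CPM per kb.

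Family relatives and partners of the members were also close to equal. Of 22 such genes 19 reached 1 CPM, 0 were 2-fold apart, and their median log2 ratio was -0.04. Among relatives of CREM, Creb1 stood at 16.7 CPM after BPA exposure and 15.3 CPM without it, and Atf1 at 104 and 109 CPM. Among relatives of FHL5, the testis gene Fhl4 stood at 2147 CPM after BPA exposure and 2156 CPM without it, while Fhl1 stood at 12.1 and 11.1 CPM and Fhl3 at 1.67 and 1.84 CPM. Fhl2, a LIM-domain cofactor of muscle and other somatic tissues, stood at 12.2 CPM after BPA exposure and 8.49 CPM without it, a ratio of 1.43 (1.251 to 1.64). Both Fhl5 and Fhl2 thus had intervals above equal levels, as did 21.8% of all genes, and Fhl1, Fhl3 and Fhl4 did not. No test of this family was made.

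The other 5 RFX genes measured here had ratios below 1, as Rfx2 did; 49.1% of all genes had log2 ratios below 0. Rfx1 stood at 185 CPM after BPA exposure and 202 CPM without it (ratio 0.915, 0.888 to 0.943). Rfx3 stood at 33.0 and 36.3 CPM (0.909, 0.846 to 0.977), Rfx5 at 16.3 and 18.3 CPM (0.886, 0.800 to 0.982) and Rfx7 at 23.5 and 25.7 CPM (0.913, 0.838 to 0.995), each with the BPA library first. Rfx4, which has a testis form, was at 95.3 CPM after BPA exposure and 95.9 CPM without it (0.994, 0.952 to 1.04). Opposite-strand exons of B230398E01Rik cover 26.8% of the exon bases of Rfx5. These ratios run from 0.886 to 0.994, and no test of the family was made.

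Of the somatic counterparts of the germ cell factors, Tbp stood at 106 CPM after BPA exposure and 102 CPM without it, Taf7 at 18.6 CPM after BPA exposure (log2 ratio -0.10), and Gtf2a1 at 44.6 CPM after BPA exposure against 43.6 CPM. The small TFIIA subunit gene Gtf2a2 stood at 102 CPM after BPA exposure and 100 CPM without it. Per kb of merged exons in the BPA library, Tbpl1 stood at 90.7 CPM per kb and Tbp at 7.78, Gtf2a1l at 151 and Gtf2a1 at 7.14, and Taf7l at 17.1 and Taf7 at 5.65. The merged exons of Tbp span 13576 bases, and a longer length gives a lower value per kb. Opposite-strand exons of Pdcd2 cover 19.0% of the exon bases of Tbp. Ovol2, a relative of Ovol1, stood at 98.8 CPM after BPA exposure and 102 CPM without it. Mybl2 (B-MYB), a cell cycle factor of dividing germ cells, stood at 9.50 CPM after BPA exposure and 12.0 CPM without it, a ratio of 0.789 (0.692 to 0.899). Myb and Ovol3 were listed at 0 in both libraries, and Tbpl2 carried no value. The 17 of 18 TFIID and TFIIA subunit genes at the floor were all within 2-fold, with a median of 0.03; Taf4b, the gonadal TFIID subunit, had the largest log2 ratio (0.30, at 18.4 CPM after BPA exposure and 14.9 CPM without it), followed by Taf1 (0.20), Taf5 (-0.14) and Taf10 (-0.13). Taf11, a subunit in general use, was also listed at 0 in both libraries, so such a 0 is given only as listed.

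Genes that depend on the members or are linked to them by their known roles were then set beside them. Of 8 CREM-dependent haploid genes, 0 were 2-fold apart and the median log2 ratio was 0.01. The protamine gene Prm1 stood at 1762 CPM after BPA exposure and 1463 CPM without it (log2 ratio 0.27), and the transition protein gene Tnp2 at 6120 and 5257 CPM (0.22). Prm2 (3895 and 3842 CPM), Tnp1 (2700 and 2834 CPM), the outer dense fibre gene Odf1 (1550 and 1608 CPM), the mitochondrial capsule gene Smcp (1445 and 1386 CPM) and Ace (713 and 710 CPM) differed less, with the BPA library first. Camk4, whose testis form calspermin is made in spermatids, stood at 77.5 and 83.8 CPM (-0.11). Promoter windows were used for 6 of these 8 genes, without Odf1 and Camk4. Of their 7 windows, 0 held TGACGTCA, against 1.79% of all windows, and 0 held TGACG, against 20.8%. Only these exact letters were sought, and with 7 windows a count of 0 says little about CREM sites.

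The 8 piRNA pathway genes linked to MYBL1 had a median log2 ratio of -0.0077 and 0 were 2-fold apart. The farthest were Tdrd5 (-0.15), Tdrd12 (-0.12), the peptidyl-prolyl isomerase gene Fkbp6 (0.10) and Piwil1 (0.08), the PIWI protein of pachytene piRNAs. Of the 10 cilium genes linked to RFX factors 0 were 2-fold apart, with a median of -0.0082; the flagellar gene Spef2 (-0.21), the ciliary factor gene Foxj1 (-0.13), Ccdc39 (-0.07) and Dync2li1 (0.06) lay farthest from 0. In Spef2 the BPA library had 39.7 CPM and the control library 46.1 CPM.

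Of 24 other transcription regulators of germ cells, 1 was 2-fold apart, where 3.28% of all genes were, and the median log2 ratio was 0.0077. That gene was Zmynd15, a repressor of spermatid genes, at 45.9 CPM after BPA exposure and 3.25 CPM without it. Its ratio was 14.1 (11.9 to 16.9), and opposite-strand exons of Cxcl16 cover 12.5% of its exon bases. Next came Egr4 (-0.44), Ctcfl (0.43) and the spermatocyte heat shock factor gene Hsf5 (-0.43), which stood at 42.4 CPM after BPA exposure and 57.2 CPM without it. Ctcfl rested on 94 reads after BPA exposure and 63 without it, and its interval of 0.988 to 1.92 holds equal levels. None of the 10 members reached the size of these 4 genes. However, the 4 were picked as the largest of the 24, so this does not compare the members with the whole list. All 4 were also less abundant than most of the members.

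**Figure D4:**
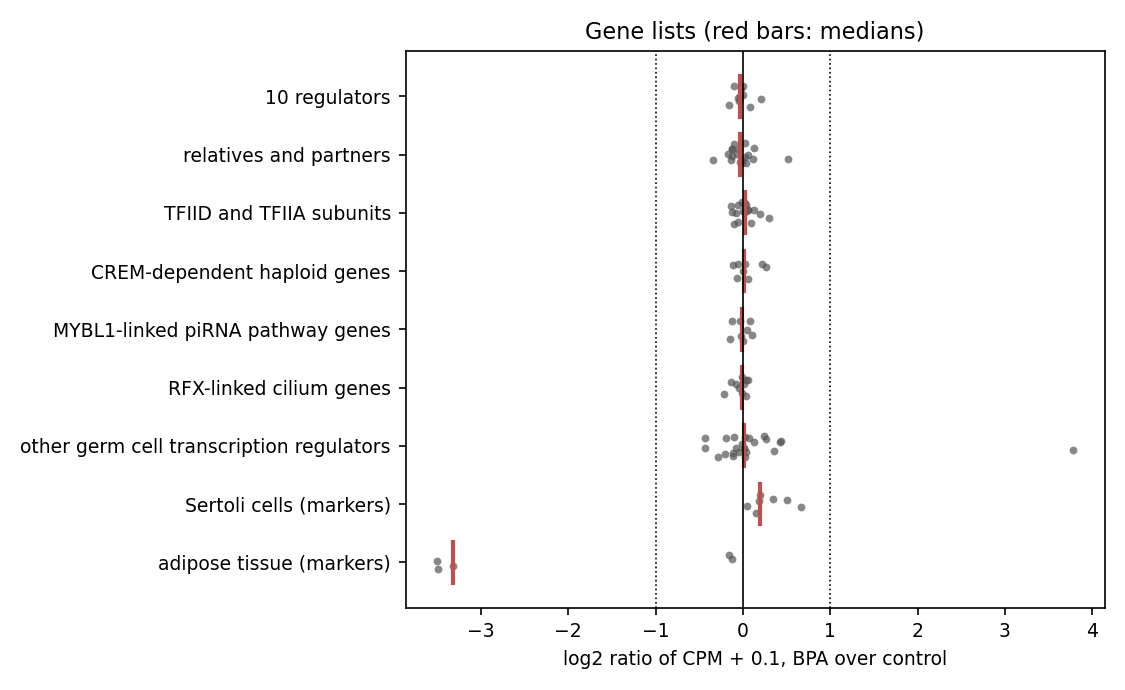
Log2 ratio of CPM with a pseudocount of 0.1 CPM, BPA over control, for each gene at 1 CPM or more in the regulators, the companion lists and the markers of Sertoli cells and adipose tissue; red bars are medians and dotted lines mark 2-fold. The 10 regulators and the lists linked to them lie around 0, Zmynd15 lies apart at 3.78, and 3 of 5 adipose markers lie below -3.

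Markers of the germ cell stages in which the members act differed little between the libraries. Their median log2 ratio was -0.04 over 6 spermatocyte markers, -0.03 over 5 round spermatid markers and 0.04 over 6 elongating spermatid markers, with 0 at 2-fold in each; all 6 of the last are also in the CREM-dependent list. Of all genes 50.9% had log2 ratios above 0. All 7 Sertoli cell markers had log2 ratios above 0, with a median of 0.20 and a summed level of 392 CPM after BPA exposure and 340 CPM without it. Above 0 were also 5 of 6 Leydig cell markers, with a median of 0.13, and 3 of 3 peritubular markers at the floor, with a median of 0.23. All 5 adipose tissue markers had log2 ratios below 0, and they summed to 23.0 CPM after BPA exposure against 59.7 CPM without it. Fabp4 (-3.50), Cidec (-3.49) and Cfd (-3.32) were 2-fold or more lower in the BPA library. Adipoq (ratio 0.896, 0.806 to 0.995) and Plin1 (ratio 0.917, 0.751 to 1.12) lay much closer to equal levels. Cidec and Cfd were listed at 0 in the BPA library, and their 17 and 32 reads there came from the deposited log2 fold change. The part of these cell types in the ratios of the members was not tested.

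The genes around the members were compared in the same way, taking those at 1 CPM or more whose start lies within 1 Mb of a member. Of 261 such genes 7 were 2-fold apart, 1 higher and 6 lower in the BPA library. That is 2.68% of them, against 3.28% of all genes, of which 1.32% were higher and 1.95% lower. They lay near 4 members. Near Ovol1, the largest group, 3 of 84 genes were lower: Majin, a telomere attachment gene of meiosis (2.42 CPM after BPA exposure and 4.98 CPM without it), the autophagy gene Atg2a (9.30 and 30.4 CPM) and the kinase gene Cdc42bpg (1.48 and 3.37 CPM). Their starts lie 0.635 to 0.757 Mb from that of Ovol1, on the side of higher coordinates, with Ehd1, within 2-fold, among them. Near Tcfl5, Chrna4 was higher (1.43 and 0.526 CPM) and Hrh3 lower (1.10 and 2.66 CPM), both genes of neural signalling with few reads. Near Gtf2a1l, Gm38460 was lower (0.286 and 1.08 CPM, on 13 and 45 reads). Near Rfx2, Plin4, a lipid droplet gene of fat, was lower (0.419 and 3.73 CPM), as were 3 of 5 adipose markers at 2-fold or more, and their part in it was not tested. Around Crem, Fhl5, Tbpl1, Taf7l, Sox30 and Mybl1 all genes at the floor were within 2-fold.

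**Figure D5:**
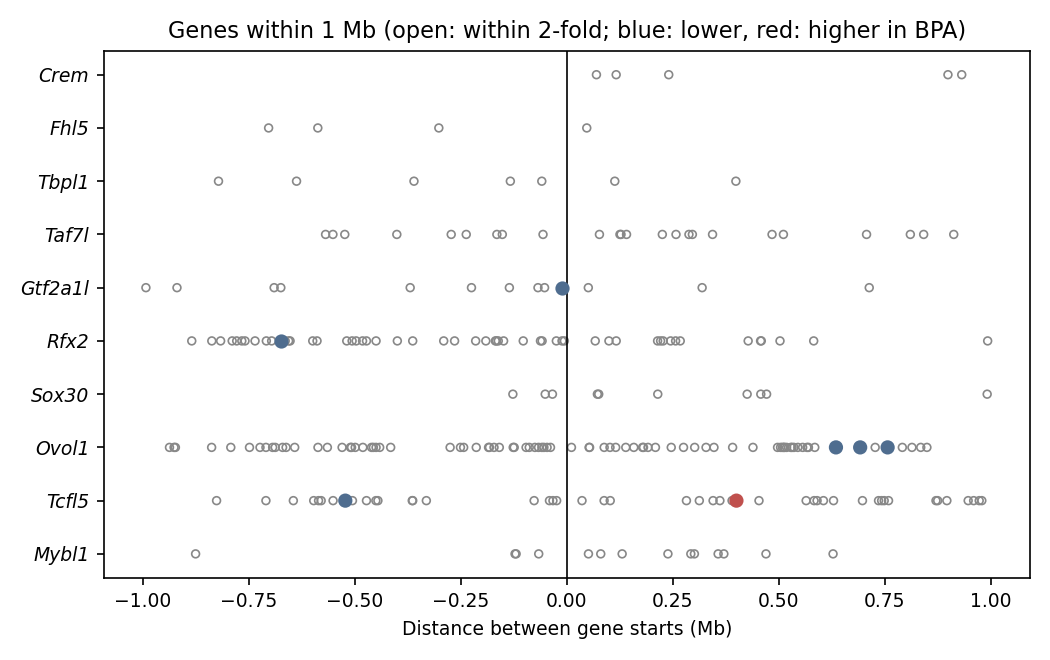
Genes at 1 CPM or more within 1 Mb of each regulator, by the distance between gene starts in Mb; open circles are within 2-fold, filled blue circles lower and filled red circles higher in the BPA library. Of 261 genes 7 are filled, 3 of them between 0.635 and 0.757 Mb from Ovol1, and 6 of the 10 regulators have 0 filled neighbours.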

How the data were processed

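The table that the authors deposited holds 44002 rows, with columns for the value in each library, the log2 of their ratio, the p-value and the q-value. The submitters' processing notes name build mm10, HISAT2 2.0.4 (an aligner) and HTSeq (a read counter) 0.6.1; the annotation, strand setting, scaling and test program are not stated in the labels or file headers used here. The control library was identified by its title, which carries no exposure, and the BPA library by its treatment label. The deposited values, headed as read counts, are CPM that sum to 995266 (BPA) and 997834 (control). No value lies between 0 and 1 CPM, and 10618 rows have no value. All values are whole multiples of 1 step per library (largest gap 2.33e-10 steps), taken as 1 read. This step is inferred, since low values, where single reads would show, are not listed, and all read numbers and intervals rest on it; no count model was fitted. It gives 45162887 listed reads after BPA exposure and 41711330 without it. Where 1 library was written as 0 and the other was not, the deposited log2 fold change gave its reads (812 values for BPA, 592 for the control). The deposited log2 fold change of the members equals their log2 CPM ratio within 4.91e-06.

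Log2 ratios used a pseudocount of 0.1 CPM, a floor of 1 CPM in the higher library and a limit of 2-fold; ratios printed without log2 have no pseudocount. Python 3.11.15 and SciPy 1.17.1 were used. Symbols, positions and promoters came from RefSeq on GRCm38 (30378 of 33384 IDs matched), exon lengths and overlaps from GENCODE M21. All members, relatives, partners and CREM-dependent genes are named. Genes 2-fold apart are named only where they belong to a list or lie near a member. From each further list of linked genes or regulators, up to 4 genes farthest from 0 are given. Of the cell type markers, those of adipose tissue are named, and others only where they are also in another list. Members and lists were chosen with earlier results of these data known. Alternatives covered scaling, pseudocount, floor, fold limit, gene length and window.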

Additional observations from a re-analysis of the deposited data

How the results depend on the processing

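With 1 library per group no replicate could be left out, and no paired analysis was possible because each group has a single library. The count of 0 members 2-fold apart stayed at 0 with a limit of 1.5-fold and with a lower one, which could have raised it. It was also 0 with equal listed totals, median ratio scaling and trimmed mean of log ratios. These scalings shifted log2 ratios by at most 0.0068, too little to bring a member to 2-fold. Other settings cannot raise a count of 0, so their result of 0 is no check of it. They were a pseudocount of 1 CPM, a floor of 4 CPM, the nearer interval bound, and leaving out the 4 members that overlap other exons. Leaving out those 4 was an alternative chosen after seeing the data. The median log2 ratio of the members ranged from -0.03 to -0.00069 over the settings listed, the last without those 4. All 40 recomputed member ratios stayed inside their counting intervals, with a largest move of 0.014; the sign of Gtf2a1l and Mybl1, with log2 ratios of -0.0029 and 0.0015, changed with scaling. The count of neighbours 2-fold apart fell from 7 to 1 with a window of 0.25 Mb, which holds 91 of the 261 genes. Some marker medians moved as well. That of the spermatocyte markers went from -0.04 to 0.015 with a floor of 4 CPM. That of the adipose tissue markers went from -3.32 to -2.18 with a pseudocount of 1 CPM. Depth limits Ovol1 most, and differences between animals cannot be judged at any depth here.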
